A study of Saccharomyces cerevisiae with 54 samples.

Results

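SPS4 (YOR313C), SPR2 (YOR214C), RRT5 (YFR032C) and YDL186W are 4 yeast genes of the 6571 genes in the count table. They were selected on a readout: their fitted changes in MMTT at 8 h 30 min, against 0 h and against SS at the same time, are among the largest of the table, and RRT5 was also chosen by its difference at 2 h 30 min. Those differences are given here as a description, with no test, and so are the differences at 0 h, which share the MMTT 0 h libraries. Tests are given for the other times and for SS on its own. The SS tests hold the SS 8 h 30 min libraries, which took part in the choice.

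Both strains are diploid S288c yeast, the common laboratory strain of Saccharomyces cerevisiae. MMTT is the allele replacement strain, with the genotype MKT1(89G)/TAO3(4477C), made by mating haploid segregants that carry both replaced alleles. SS is the wildtype, with the genotype MKT1(89A)/TAO3(4477G). The cells of both strains were grown in YPD, then in YPA, which holds acetate in place of glucose, and were moved to 1% potassium acetate with amino acid supplements, the sporulation medium. RNA was sequenced at 9 times from 0 h to 8 h 30 min, with 3 replicates of each strain at each time, 54 libraries in all. Nothing in the labels says whether replicates were separate cultures, so p-values measure the spread between these samples, which may be technical.

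Starved diploid yeast leaves the mitotic cycle, replicates its DNA, passes through both meiotic divisions and packs the products into spores. The genes of this programme are switched on in waves. Ime1 and Ime2 start the early wave, and the transcription factor Ndt80 then opens the middle wave by binding a short DNA element, the middle sporulation element or MSE, in competition with the repressor Sum1. SPS4 is a gene known for its induction in sporulation, and its MSE is one of those on which the element was studied. SPR2 encodes a putative spore wall protein. RRT5 was named in a screen for regulators of ribosomal DNA transcription and its protein has no known function. YDL186W has no assigned function.

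The stretches around the MSE-like letters before each gene are shown because all 4 genes hold them. The search covered the 300 bases before each start codon on both strands, in the RefSeq copy of the R64 genome. An MSE core was taken as CACAAAA, its variant CACAAAT, the form CGCAAAA and also the form CGCAAAT, and an extended MSE as GNCACAAAA, which contains the first of these cores. The sequences run 5′ to 3′ on the strand of the gene, with 40 bases on either side of the matches where the window allows it, and the matches are in capitals.
SPS4: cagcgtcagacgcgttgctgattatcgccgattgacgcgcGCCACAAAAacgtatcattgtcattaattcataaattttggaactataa
SPR2: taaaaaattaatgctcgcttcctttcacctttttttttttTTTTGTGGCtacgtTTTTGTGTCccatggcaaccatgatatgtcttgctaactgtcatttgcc
RRT5: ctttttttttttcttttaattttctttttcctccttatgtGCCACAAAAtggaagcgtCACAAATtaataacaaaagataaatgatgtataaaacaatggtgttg
YDL186W: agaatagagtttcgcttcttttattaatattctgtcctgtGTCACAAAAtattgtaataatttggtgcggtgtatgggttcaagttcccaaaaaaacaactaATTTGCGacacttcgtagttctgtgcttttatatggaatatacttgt

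The SPS4 stretch lies at chrXV:903018-903106 on the minus strand, before a coding region at chrXV:901858-902874, and it runs into the annotated gene YOR314W on the other strand. SPS4 has 1 extended MSE, 192 to 184 bases before its start codon. The SPR2 stretch lies at chrXV:746501-746603 on the minus strand, before chrXV:745593-746303. SPR2 has 2 extended MSEs, both on the strand opposite to the gene, 260 to 252 and 246 to 238 bases before the start codon. The RRT5 stretch lies at chrVI:223027-223131 on the minus strand, before chrVI:222090-222959, with an extended MSE 132 to 124 bases and a second core 114 to 108 bases before the start. The YDL186W stretch lies at chrIV:125410-125558 on the plus strand, before chrIV:125616-126449, with an extended MSE 166 to 158 bases and a reversed core 104 to 98 bases before the start.

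An extended MSE was found before 4 of the 4 genes, against 110 of the 6001 genes with a complete window (1.8%). The shorter cores were found before 1192 of the 6001 genes (19.9%), so a core alone is common. Among a list of 10 other SPS and SPR genes, named like SPS4 and SPR2 for their induction in sporulation, 6 held an extended MSE. It was found before 16 of 43 middle meiotic and spore formation genes, a list that shares genes with the SPS and SPR list. Among early meiotic genes it was found before 1 of 24. Of the genes that passed the test as higher in MMTT than in SS at 8 h 30 min, the 4 genes left out, 50 of 224 with a window held one (22.3%), against 0 of 8 of those that passed as lower. GGCGGC, the core of the URS1 element of early meiotic genes, is in 312 of the 6001 windows (5.2%) and in none of the 4. A match is a description of the letters and not a site of binding.

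**Figure D1:**
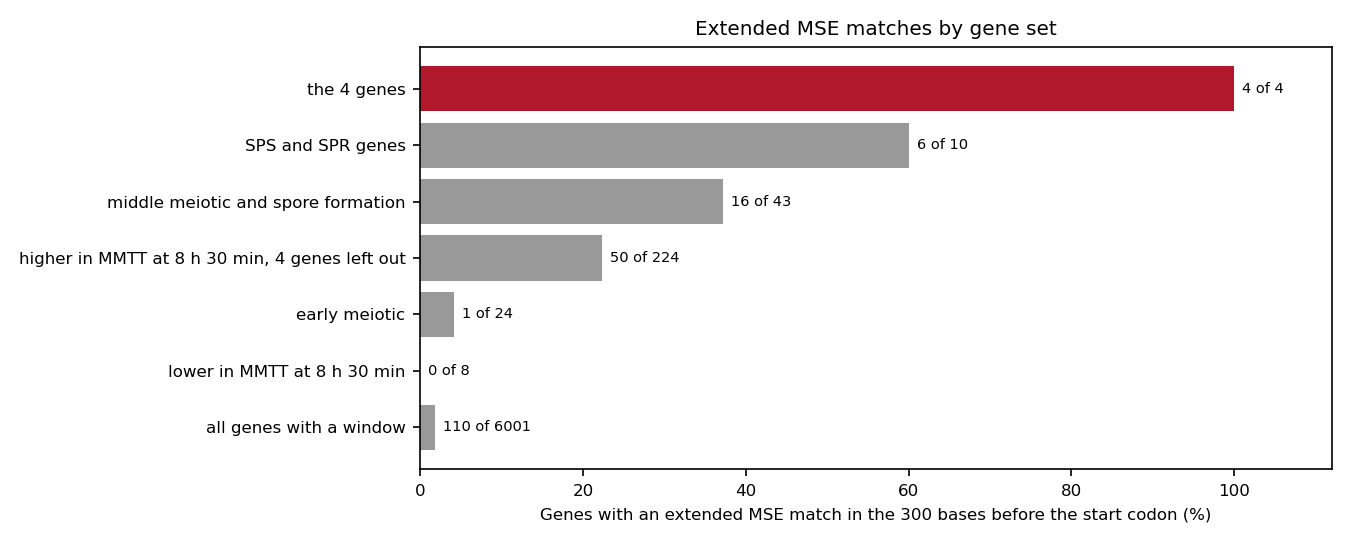
Share of genes with an extended MSE in the 300 bases before the start codon (horizontal axis, %), by gene set, with counts beside the bars. All of the 4 genes hold one, against 110 of 6001 genes with a window. Some of the sets share genes.

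Of the 54 libraries, the 49 that the study kept, 24 of MMTT and 25 of SS, had total counts from 1455002 to 5793502 with a median of 3641591, and 5 of the 18 groups are left with 2 libraries. The 5 others are SS 0 h replicate 1 and SS 30 min replicate 1, with 195492 and 159701 counts, MMTT 2 h 30 min replicate 3 with 303349, MMTT 45 min replicate 2 with 3559383 and MMTT 5 h 40 min replicate 3 with 4567237. Over 6043 genes, the left-out MMTT 45 min library lies nearest to MMTT 8 h 30 min replicate 3, and the left-out MMTT 5 h 40 min library nearest to MMTT 1 h 10 min replicate 3. A kept library, MMTT 2 h 30 min replicate 2, also stands apart from its group and lies nearest to MMTT 8 h 30 min replicate 2. Values below come from the kept libraries unless a left-out one is named, and results that rest on these libraries are given with and without them. Levels are CPM, counts scaled to a common library total with edgeR's TMM factors.

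At 8 h 30 min all 4 genes stood far above every other group of kept libraries. SPS4 was at 9835, 5782 and 10864 CPM in the MMTT libraries, against 13.3, 3.98 and 6.12 CPM in the SS libraries. The raw counts behind them were 36134, 26467 and 58967 in MMTT, against 48, 14 and 24 in SS. The lowest MMTT library thus lies far above the highest SS library, and replicate 2 is the lowest in both strains. SPR2 was at 2322, 1283 and 2189 CPM in MMTT, against 4.72, 1.70 and 4.08 CPM in SS. RRT5 was at 2051, 1028 and 1711 CPM in MMTT, against 8.33, 1.70 and 4.08 CPM in SS. YDL186W, the least abundant, was at 315, 156 and 257 CPM in MMTT, against 1.94, 1.14 and 1.28 CPM in SS. In each gene replicate 2 was the lowest of the MMTT libraries. In RNA from a whole culture, fewer cells that express a gene and less RNA of it per cell cannot be told apart.

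The ratios of the group means at 8 h 30 min, MMTT over SS, were 1130 for SPS4, 551 for SPR2, 339 for RRT5 and 167 for YDL186W. On edgeR's log2 scale they were 10.14 ± 0.82 (approximate standard error), 9.08 ± 0.73, 8.39 ± 0.71 and 7.35 ± 0.72 in the same order. These put SPS4 at rank 1, SPR2 at rank 3, RRT5 at rank 9 and YDL186W at rank 29 of 6031 genes, with SPS2 (log2 fold change 10.04), which encodes a spore wall protein, at rank 2 and HXT14 (8.96) at rank 4. Of all genes tested 4.0% passed the test as higher in MMTT at that time. This share is given for scale, since the contrast chose the genes.

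Against MMTT at 0 h, the fitted log2 fold changes at 8 h 30 min were 9.23 ± 1.01 for SPS4, 8.21 ± 0.88 for SPR2 and 9.61 ± 0.90 for RRT5. YDL186W had 3267 counts in the 3 libraries at 8 h 30 min and 3 counts in the 3 libraries at 0 h. Per summed library total this is a ratio of 789 with a 95% exact counting interval of 270 to 3829, while its ratio of mean CPM was 750. RRT5 held rank 1 of 6419 genes in this contrast, YDL186W rank 2, SPS4 rank 3 and SPR2 rank 9. The nearest genes outside the selection were DTR1 (log2 fold change 8.91), which encodes the dityrosine transporter of the prospore membrane, and YGR273C (8.71). Ratios given with such intervals, here and below, use library totals without TMM factors, and the intervals cover counting error only.

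The 4 genes differ in abundance. Per 1000 bases of coding length, the MMTT 8 h 30 min mean was 8679 CPM for SPS4, 2716 for SPR2, 1835 for RRT5 and 291 for YDL186W. By this measure SPS4 held ranks 7 to 13 among 5895 protein-coding genes in the 3 MMTT libraries, SPR2 ranks 26 to 71, RRT5 ranks 47 to 130 and YDL186W ranks 535 to 1063. In the SS libraries of that time SPS4 ranked between 5133 and 5557. Counts of the 4 genes together were 1.45%, 0.854% and 1.51% of the MMTT 8 h 30 min libraries, against 0.00288%, 0.000913% and 0.00169% of the SS 8 h 30 min libraries.

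**Figure D2:**
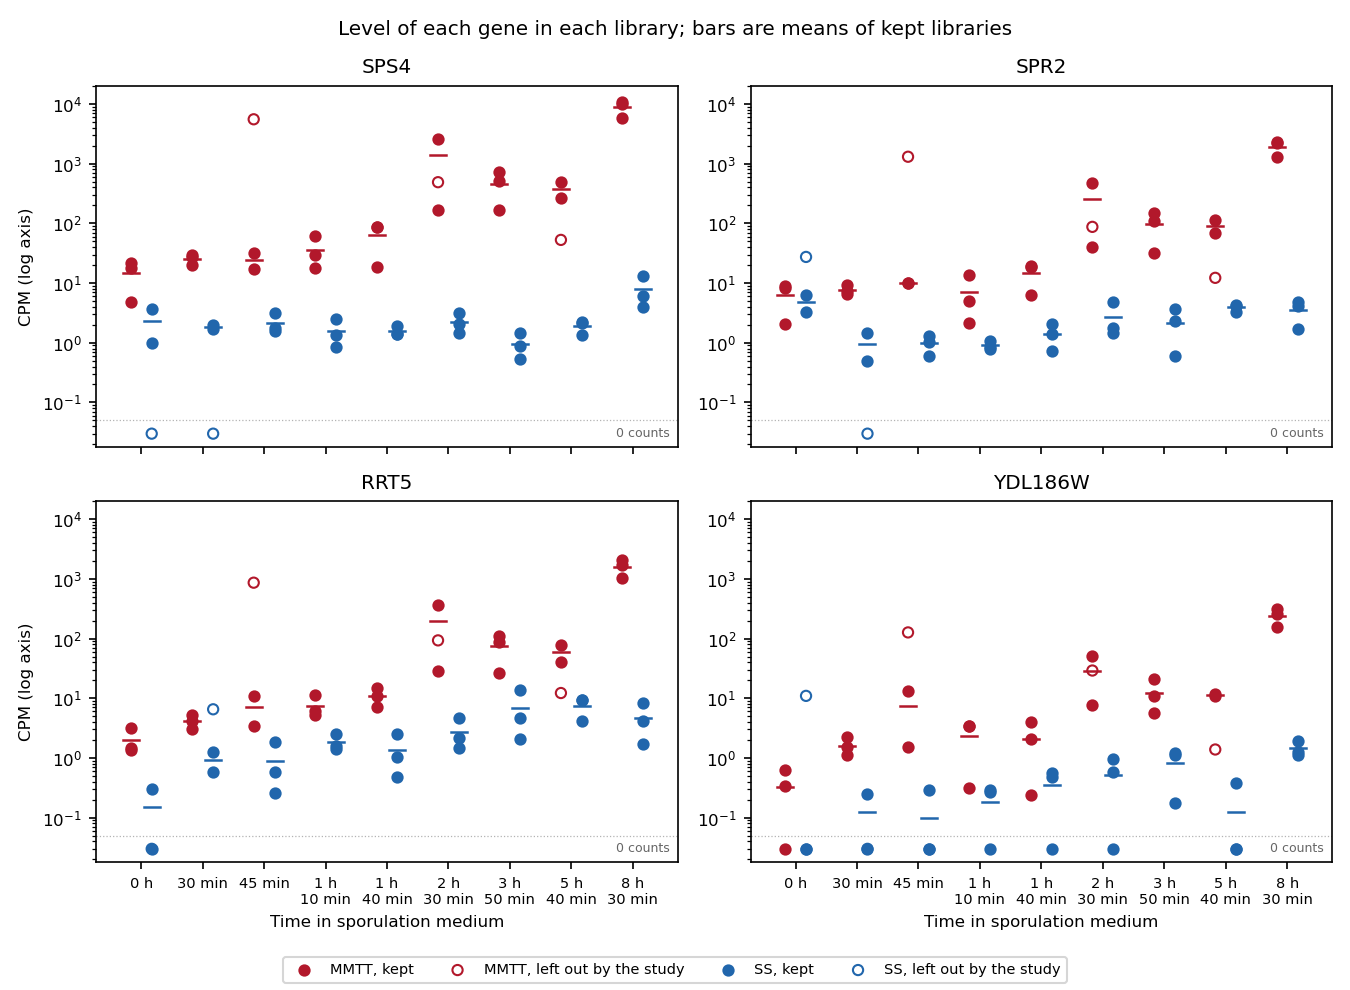
CPM of each gene in each library (log axis) over time in sporulation medium, with MMTT left of SS at each time, open circles for libraries left out by the study and bars for the means of kept libraries. SPS4 in MMTT reaches 5782 to 10864 CPM at 8 h 30 min, while its highest kept SS library is at 13.3 CPM.

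SPS4 was above SS in MMTT at all 9 times. It was at 17.6, 4.77 and 21.4 CPM in the MMTT libraries at 0 h, with 27.5, 20.2 and 29.0 CPM after 30 min, and 17.1 and 31.7 CPM in the kept libraries of 45 min. Libraries of 1 h 10 min gave 29.9, 17.9 and 60.9 CPM, and those of 1 h 40 min gave 85.9, 18.9 and 88.3 CPM, all under every later kept library. The 2 kept libraries of 2 h 30 min gave 166 and 2623 CPM, the 3 of 3 h 50 min gave 507, 722 and 166 CPM, and the 2 kept ones of 5 h 40 min gave 485 and 270 CPM. In the 25 SS libraries SPS4 lay between 0.527 and 13.3 CPM with a median of 1.77. At no time did an MMTT library overlap an SS library of the same time. This is a description, since 8 h 30 min chose the gene and the share of all genes without overlap was not counted.

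SPR2, RRT5 and YDL186W also stood higher in MMTT from 2 h 30 min on, at lower levels than SPS4. SPR2 was at 8.33, 2.05 and 8.82 CPM in MMTT at 0 h, against 6.41 and 3.27 CPM in SS, so that the strains overlapped at the start. It was at 18.4, 6.30 and 19.4 CPM in MMTT at 1 h 40 min and at 109, 151 and 32.3 CPM at 3 h 50 min. RRT5 was at 1.49, 1.36 and 3.15 CPM in MMTT at 0 h, at 10.9, 7.02 and 14.8 CPM at 1 h 40 min and at 86.2, 110 and 26.4 CPM at 3 h 50 min. In SS, RRT5 had 1 count in the 2 libraries at 0 h and up to 13.9 CPM later. YDL186W had 0, 1 and 2 counts in the MMTT libraries at 0 h, and at 3 h 50 min it was at 10.8, 20.7 and 5.66 CPM. It had 0 counts in 10 of the 25 SS libraries and at most 7.

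The 7 times from 30 min to 5 h 40 min did not choose the genes, except that RRT5 was also chosen at 2 h 30 min. All of the genes were fitted higher in MMTT at each of these times, RRT5 at 2 h 30 min by choice. The share of all genes fitted higher is not given, so this shared direction is a description. The RRT5 difference at 2 h 30 min is left out of the tests that follow. Of 27 tests of a gene at a time, 22 passed, all as higher in MMTT (edgeR's robust quasi-likelihood test, adjusted p under 0.05 and a log2 fold change over 2). The genes were read in the same libraries at each time and varied together in MMTT. Their pairwise Pearson correlations of log2 CPM ran from 0.936 to 0.988 over the 24 kept MMTT libraries. The 27 tests are thus not separate pieces of evidence. SPS4 and SPR2 passed at each of the 7 times. YDL186W passed at 5 times and did not at 30 min or 1 h 40 min. Its highest kept SS library was at 1.94 CPM, under the filter of 3 CPM in 3 libraries. It thus entered these tests through MMTT libraries alone, among them those of 8 h 30 min that chose it. RRT5 passed at 3 of its 6 tested times, 1 h 40 min, 3 h 50 min and 5 h 40 min.

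SPS4 had log2 fold changes of 3.76 ± 1.03 at 30 min (edgeR, adjusted p = 0.0044), 3.55 ± 0.92 at 45 min (adjusted p = 0.0042), 4.42 ± 0.85 at 1 h 10 min (adjusted p = 1.3e-04) and 5.31 ± 0.86 at 1 h 40 min (adjusted p = 2.6e-05). Its later log2 fold changes were 9.22 ± 0.86 at 2 h 30 min (adjusted p = 7.9e-10), 9.03 ± 0.93 at 3 h 50 min (adjusted p = 8.8e-09) and 7.65 ± 0.86 at 5 h 40 min (adjusted p = 1.6e-07). The share of all 6031 genes that passed as higher was 1.71% at 30 min, 2.40% at 45 min, 1.26% by 1 h 10 min and 0.763% by 1 h 40 min. It was 3.20% by 2 h 30 min, then 1.51% by 3 h 50 min and last 2.64% by 5 h 40 min. Counted against these shares, 2 of 4 genes passed at 30 min, 3 of 4 at each of the next 3 times, 3 of 3 at 2 h 30 min and 4 of 4 at both later times. The genes share libraries and vary together in MMTT, so these counts are a description and not separate evidence from each gene. The median log2 fold change over all genes lay between -0.06 and 0.03 at these times.

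SPR2 had log2 fold changes of 2.98 ± 1.18 at 30 min (edgeR, adjusted p = 0.042), 3.29 ± 1.06 at 45 min (adjusted p = 0.020), 2.97 ± 1.00 at 1 h 10 min (adjusted p = 0.019) and 3.45 ± 0.87 at 1 h 40 min (adjusted p = 0.0041). Its log2 fold change was 6.47 ± 0.71 at 2 h 30 min (adjusted p = 1.5e-08), 5.50 ± 0.72 at 3 h 50 min (adjusted p = 6.5e-07) and 4.53 ± 0.69 at 5 h 40 min (adjusted p = 1.7e-05). That of RRT5 was 2.08 ± 1.30 at 30 min (adjusted p = 0.20), 2.59 ± 1.23 at 45 min (adjusted p = 0.12) and 1.97 ± 0.86 at 1 h 10 min (adjusted p = 0.068), none of which passed. RRT5 passed with 3.02 ± 0.91 at 1 h 40 min (adjusted p = 0.014), 3.53 ± 0.62 at 3 h 50 min (adjusted p = 7.8e-05) and 2.89 ± 0.64 at 5 h 40 min (adjusted p = 0.0015), and was fitted at 6.16 ± 0.72 at 2 h 30 min, where it was chosen.

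YDL186W rests on few reads in SS. Its ratio of summed counts per library total, MMTT over SS, was 12.0 at 30 min (95% exact counting interval 1.88 to 501), 48.5 at 45 min (8.05 to 1983), 16.0 at 1 h 10 min (4.07 to 138) and 142 at 5 h 40 min (24.6 to 5670), with 1, 1, 2 and 1 counts in SS. In edgeR's test its adjusted p was 0.13 at 30 min and 0.0041 at 45 min, then 0.022 by 1 h 10 min and 0.12 by 1 h 40 min. It was 4.4e-06 at 2 h 30 min (log2 fold change 5.61 ± 0.84), 4.0e-04 at 3 h 50 min (4.09 ± 0.82) and 1.8e-04 at 5 h 40 min. Without MMTT 45 min replicate 1, which held 21 of the 29 MMTT counts, the 45 min test did not pass (log2 fold change 3.63, adjusted p = 0.20).

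**Figure D3:**
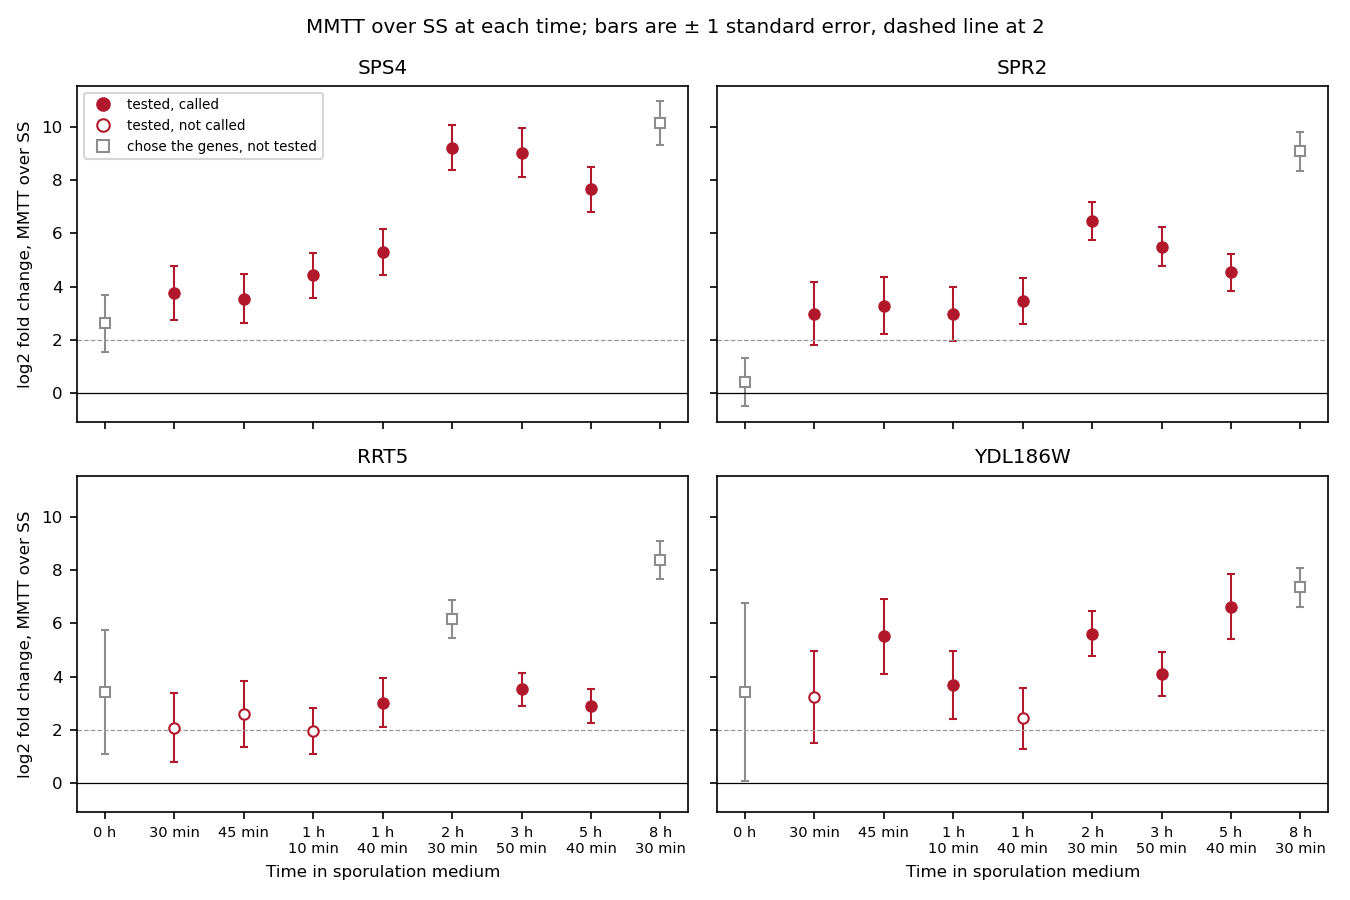
Fitted log2 fold change of MMTT over SS at each time, with bars of ± 1 approximate standard error. Filled circles passed the test, open circles did not, and grey squares are differences that chose the genes. SPS4 goes up to 9.22 at 2 h 30 min and 10.14 at 8 h 30 min.

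The values at 2 h 30 min depend on the library that stands apart. MMTT replicate 1 and replicate 2 of that time lay at 166 and 2623 CPM for SPS4, 39.6 and 479 CPM for SPR2, 28.7 and 359 CPM for RRT5 and 7.74 and 50.2 CPM for YDL186W. The left-out replicate 3 lay between them, at 489, 87.4, 93.2 and 29.1 CPM for the same genes. Without replicate 2, the log2 fold change against SS was 6.19 for SPS4 (edgeR, adjusted p = 2.3e-07), 3.78 for SPR2 (4.6e-04) and 3.71 for YDL186W (0.026), so that each test still passed on smaller differences.

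The early differences depend on which libraries are used. With all 54 libraries, 16 of the 27 tests passed. SPS4 at 30 min then missed the threshold (adjusted p = 0.075), as did SPR2 in that test (0.23), RRT5 at 5 h 40 min (0.085), and SPR2 (0.18) and YDL186W (0.10) at 1 h 10 min. SPR2 (0.10) and RRT5 (0.15) also missed it at 1 h 40 min. The test of RRT5 at 45 min passed (log2 fold change 8.29, adjusted p = 1.9e-05) in that fit, which holds the left-out MMTT library of that time.

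Leaving out 1 kept library also moved early calls. SPR2 at 30 min lost its call without MMTT replicate 1 or 2, or SS replicate 2 or 3 (adjusted p from 0.061 to 0.23), and at 45 min without MMTT replicate 1 or 3, or SS replicate 2 or 3 (0.053 to 0.083). At 1 h 10 min it lost the call without MMTT replicate 3, SS replicate 2 or SS replicate 3 (0.051 to 0.18). SPS4 lost its 45 min call without MMTT replicate 3 (log2 fold change 3.05, adjusted p = 0.076). YDL186W lost that of 1 h 10 min without MMTT replicate 1, MMTT replicate 3 or SS replicate 3 (0.064 to 0.10), and RRT5 that of 1 h 40 min without SS replicate 2 (0.069) or SS replicate 3 (0.060). From 2 h 30 min on, no single library ended a call of the 4 genes between the strains.

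The left-out MMTT 45 min library had the 4 genes near the 8 h 30 min level, SPR2 within its range and the others below. SPS4 was at 5539 CPM in it, SPR2 at 1306, RRT5 at 863 and YDL186W at 127, while the 2 kept 45 min libraries were at 17.1 and 31.7, 10.2 and 9.95, 10.8 and 3.38, and 13.3 and 1.5 CPM. Its NDT80 level, 307 CPM, also lay near the 324 to 568 CPM of MMTT at 8 h 30 min and apart from the 34.3 and 23.1 CPM of the other 45 min libraries. The left-out MMTT 5 h 40 min library went the other way, with SPS4 at 52.8 CPM against 485 and 270 in the kept ones. Both left-out SS libraries are shallow and had 7 counts and 1 count of the 4 genes together. Whether any library was exchanged with another was not tested.

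Whether the difference between the strains varied over the 7 times was tested with 6 coefficients together at the study's threshold of 0.001. None of SPS4, SPR2 and YDL186W passed in edgeR (adjusted p = 0.0075, 0.22 and 0.63), against 4.81% of all genes. At an unadjusted p under 0.05 SPS4 alone was past the threshold (7.5e-04). DESeq2's likelihood ratio test passed SPS4 (adjusted p = 5.8e-08), as did edgeR without MMTT 2 h 30 min replicate 1 (1.2e-04).

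Within MMTT, the 4 genes lay higher at 3 h 50 min than at 1 h 40 min, with no overlap of the libraries in any of them. How many of all genes do so was not counted, so the lack of overlap is a description. The log2 fold change was 2.86 ± 0.75 for SPS4 (edgeR, adjusted p = 0.029), 2.73 ± 0.70 for SPR2 (0.025), 2.77 ± 0.66 for RRT5 (0.018) and 2.52 ± 0.78 for YDL186W (0.054). So 3 of 4 genes passed, against 0.405% of the 6419 genes tested, 26 genes in all. The genes share these libraries and vary together in MMTT, so their calls are not separate pieces of evidence. The calls are fragile. With all 54 libraries none of the 4 passed (adjusted p = 0.31 for SPS4), and 0 passed without MMTT 1 h 40 min replicate 1 or 2 or MMTT 3 h 50 min replicate 1 or 2, and 1 without MMTT 1 h 40 min replicate 3. Without MMTT 2 h 30 min replicate 2, an alternative chosen after the data were seen, all 4 passed (0.0048, 0.0037, 0.0012 and 0.027 in the same order).

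At 5 h 40 min against 1 h 40 min the log2 fold changes were 2.57 ± 0.79 for SPS4, 2.64 ± 0.75 for SPR2, 2.44 ± 0.71 for RRT5 and 2.42 ± 0.88 for YDL186W. None passed in edgeR (adjusted p between 0.12 and 0.22), against 0.0312% of all genes, and none passed in DESeq2. All 4 had an unadjusted p under 0.05, from 0.0022 to 0.012. Without the library that stands apart at 2 h 30 min, 3 of the 4 passed (SPS4 0.035, SPR2 0.022, RRT5 0.018).

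In the MMTT mean levels each of the 4 genes was highest at 8 h 30 min, followed by 2 h 30 min, then 3 h 50 min, then 5 h 40 min, and then the earlier times. Apart from 8 h 30 min, the libraries of these later times overlap each other in all 4 genes, so the order among these times is within their spread. The level at 3 h 50 min was 5.27% of that at 8 h 30 min for SPS4, 5.05% for SPR2, 4.64% for RRT5 and 5.10% for YDL186W. At 5 h 40 min the shares were 4.28%, 4.71%, 3.67% and 4.74% in the same order. The genes thus stood at much the same fraction of their last level as each other.

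**Figure D4:**
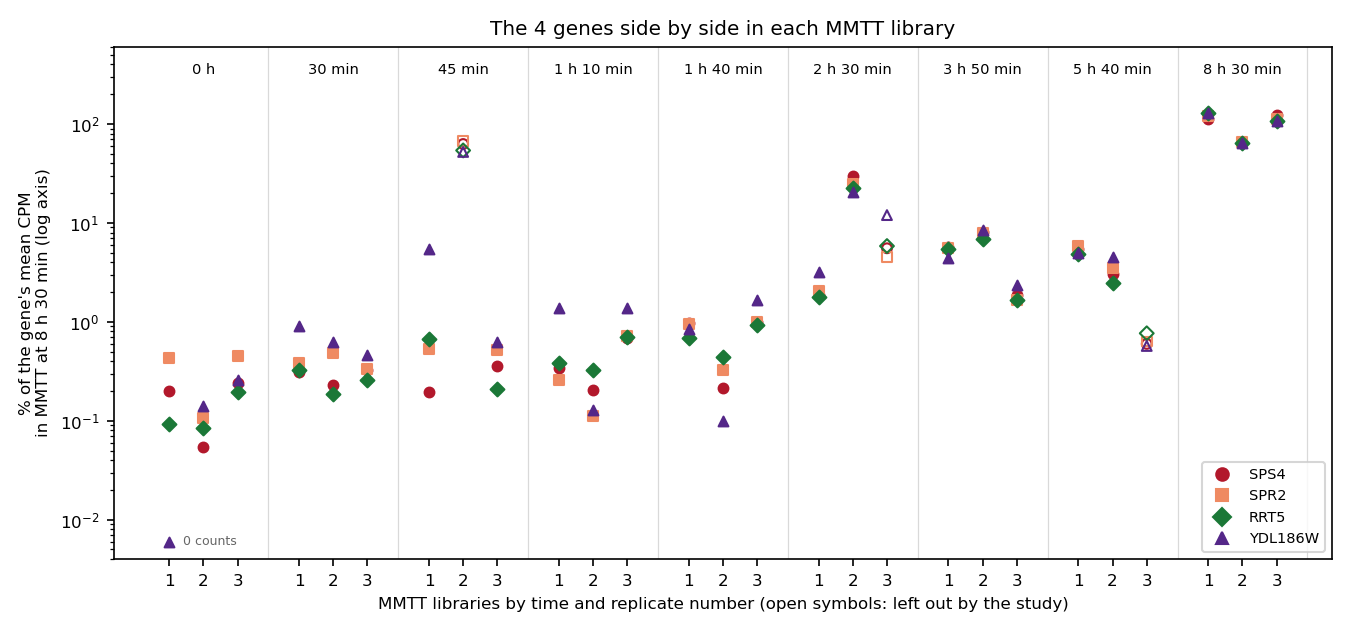
Level of each gene in each MMTT library as a percentage of its mean at 8 h 30 min (log axis), by time and replicate number, with open symbols for libraries left out by the study. SPS4, SPR2 and RRT5 lie close together in each library from 2 h 30 min on, YDL186W less so, and the left-out 45 min library lies near those of 8 h 30 min.

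SPS4, SPR2 and RRT5 kept to narrow ratios in the late MMTT libraries. Over the 10 kept MMTT libraries from 2 h 30 min on, the counts of SPS4 over SPR2 had a median of 4.59 (lowest 3.96, highest 5.47), and SPS4 over RRT5 ranged from 4.79 to 7.30. SPS4 over YDL186W ranged more widely, from 21.5 to 52.2. The 10 libraries include those of 8 h 30 min, on which the genes were chosen. The left-out 45 min library gave 4.24 for SPS4 over SPR2 and 6.42 for SPS4 over RRT5, within those ranges. At 0 h in MMTT, SPS4 over SPR2 was 2.11, 2.33 and 2.43, below the late range. In the 25 SS libraries the median of SPS4 over SPR2 was 1.17, with a range of 0.231 to 4.0 on counts of at most 48.

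Over the 24 kept MMTT libraries the Pearson correlation of log2 CPM was 0.988 between SPS4 and SPR2, 0.984 between SPS4 and RRT5 and 0.936 between SPS4 and YDL186W. Over the 25 SS libraries the same pairs gave 0.40, 0.21 and 0.46. The points share libraries and times, and the SS levels are a few counts each, so these are descriptions only. Closest to SPS4 among 6419 genes were YPR078C (0.992), SPO19 (0.991), which encodes a prospore membrane protein, SPR2 itself, ECM23 (0.988) and SPS2 (0.985). Next to SPR2 came SPS4, ECM23 (0.987), SPS2 (0.986), LDS2 (0.986) and LDS1 (0.984), the last pair encoding lipid droplet proteins of the spore wall.

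RRT5 was most like SPR3 (0.993), which encodes a septin of sporulating cells, YPR027C (0.988), AMA1 (0.988), an activator of the anaphase-promoting complex in meiosis, SSP2 (0.987) and CDA2 (0.986), a chitin deacetylase of the spore wall. YDL186W was most like SPS1 (0.970), a protein kinase of spore formation, LOH1 (0.963), RRT5 (0.962), SSP2 (0.961) and SPO74 (0.958), a spindle pole body component of meiosis. YDL186W stood at position 65 in likeness to SPS4, and RRT5 at position 6.

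SS showed small changes of its own. The tests of SS over time are not free of the choice of the genes, which used the SS 8 h 30 min libraries. Over its 9 times the joint test passed RRT5 (edgeR, adjusted p = 0.0016), SPS4 (0.0022) and SPR2 (0.013) and did not pass YDL186W (0.052), which passed without SS 45 min replicate 2, 2 h 30 min replicate 2, 3 h 50 min replicate 3 or 5 h 40 min replicate 1 (0.030 to 0.049). These 3 of 4 genes stand beside 48.5% of all 6350 genes, so a change over time in SS is no mark of them. SPS4 was highest in SS at 8 h 30 min, at 7.81 ± 4.90 CPM (SD, n = 3), and did not pass without SS 8 h 30 min replicate 1 (0.086). RRT5 was highest at 5 h 40 min, at 7.56 CPM, and SPR2 at 0 h, at 4.84 CPM.

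At 8 h 30 min against 0 h in SS, 2 of the 4 genes passed as higher, against 3.31% of all genes. The choice of the genes used the SS 8 h 30 min libraries and favours low levels in them, so this test is not independent of it. RRT5 had 52 counts at 8 h 30 min and 1 count at 0 h (edgeR, adjusted p = 0.0055). Per library total this is a ratio of 33.6 with an exact counting interval of 5.76 to 1351. RRT5 did not pass without SS 0 h replicate 3, which leaves 1 library at 0 h (log2 fold change 3.82). YDL186W had 16 counts at 8 h 30 min and 0 counts in both libraries at 0 h, so it was at least 1.53-fold higher against a floor of 3 counts per library (adjusted p = 0.023). It did not pass without either SS 0 h library (0.11). With all 54 libraries it did not pass either (0.38), the left-out SS 0 h library holding 2 of its 195492 counts, and DESeq2 gave it no adjusted p. SPS4 had a log2 fold change of 1.73 ± 0.61 (0.026), under the fold threshold, which it passed once replicate 2 of SS 0 h (2.97) or of SS 8 h 30 min (2.04) was left out, and SPR2 one of -0.46 ± 0.61 (0.58).

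The regulators of the programme were measured in the same libraries. NDT80, the activator of the middle wave, was at 568, 324 and 521 CPM in MMTT at 8 h 30 min, against a mean of 29.4 ± 1.62 CPM in SS (SD, n = 3). Its log2 fold change was 4.0 ± 0.31 (edgeR, adjusted p = 4.2e-13). In MMTT at 1 h 40 min, where SPS4 had passed, NDT80 was at 33.0 ± 4.34 CPM, against 21.6 ± 7.45 CPM in SS. At 2 h 30 min it was at 41.0 and 149 CPM in the MMTT libraries, the second being the library that stands apart, and at 3 h 50 min at 48.3 ± 17.9 CPM. IME2, an early kinase, was higher in MMTT at 8 h 30 min (3.41 ± 0.37, 1.7e-09), whereas IME1, which starts the programme, at 1.28 ± 0.50 (0.036), and the repressor SUM1, at -0.29 ± 0.12 (0.048), were under the fold threshold. Of 9 regulators, 3 passed as higher and 0 as lower, NDT80, IME2 and RIM4 (3.25), with a list median of 1.03.

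Lists of related genes were counted in the contrast that chose the 4 genes. Of 43 middle meiotic and spore formation genes, 39 passed as higher in MMTT than in SS at 8 h 30 min and 0 as lower, with a median log2 fold change of 4.79, beside a median of -0.05 and 4.0% higher over all genes. The largest were SPS2 (10.04 ± 0.83), OSW1 (8.91 ± 0.64), an outer spore wall gene, and SPO77 (8.41 ± 0.81), needed for closing the prospore membrane. The smallest were SPO73 (0.84 ± 0.25) and SPO71 (0.66 ± 0.15), which did not pass. Among 24 early meiotic genes 21 passed as higher, with a median of 2.65. The 4 genes, at 7.35 to 10.14, were chosen for large values here, so their place above both list medians follows from the choice. The middle list itself reaches 10.04, and the early one ends at 4.24.

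Of the 10 other SPS and SPR genes, 8 passed as higher and 0 as lower, with a median log2 fold change of 5.40. This list is not separate from the others. SPS1, SPS2, SPS22, SPR1, SPR3, SPR6 and SPR28 are also in the middle list, and SPS100 is also in the late spore wall list. SPR1 (6.91 ± 0.49), a glucanase of sporulation, and SPR3 (6.62 ± 0.51) followed SPS2. SPS19 (0.90 ± 0.13), a peroxisomal reductase, did not reach the fold threshold, and neither did SPS100 (-1.62 ± 0.31), a late spore wall gene that was at 636 ± 93.9 CPM in MMTT and 1949 ± 218 CPM in SS (SD, n = 3 each). Of 4 late spore wall genes, SGA1 (4.16) and DIT2 (2.97) passed as higher, while DIT1 (0.42) and SPS100 did not.

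Most of the other genes with an RRT name did not pass the test, where 4.0% of all genes passed as higher. Of 10 other RRT genes tested, 2 passed as higher, RRT12 (6.45 ± 0.49), which encodes a protease of spore wall formation, and RRT7 (4.19 ± 1.09), at 3.92 ± 2.44 CPM in MMTT and 0.187 ± 0.162 CPM in SS (SD, n = 3 each). RRT8 came next at 0.58 ± 0.15. The median of the list was 0.18, and its smallest values were those of RRT2 (-0.42 ± 0.16) and RRT13 (-1.09 ± 0.30).

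Genes that mark haploid mating cells were set beside the labelled diploid state, which they cannot decide, since no library of haploid cells is there to compare. Their summed level over 16 genes was 240 to 261 CPM in MMTT at 0 h, against 188 CPM in both SS libraries, and 408 to 518 CPM in MMTT at 8 h 30 min, against 224 to 259 CPM in SS. Of 15 tested at 8 h 30 min, STE18 passed as higher (4.48 ± 0.65) and 14 did not pass. Among these 14, STE4 (1.83 ± 0.20, edgeR, adjusted p = 1.1e-09) was under the fold threshold. Both are named here after their values were seen, and the list median was 0.57. The part of these genes in the results was not tested.

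**Figure D5:**
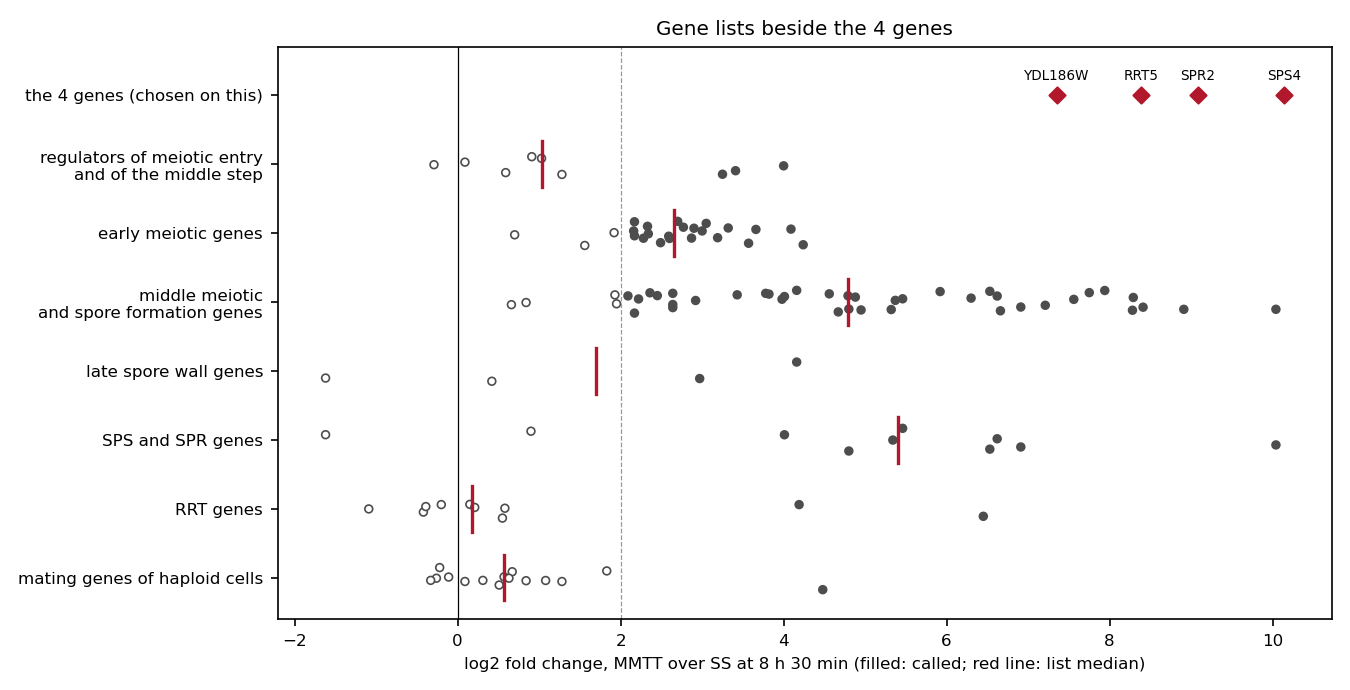
Fitted log2 fold change of MMTT over SS at 8 h 30 min for the 4 genes (red diamonds) and for the genes of 7 lists, filled where the test passed, with list medians as red lines and the fold threshold of 2 dashed. The 4 genes, chosen on this contrast, lie at 7.35 to 10.14, beside medians of 4.79 for the middle list and 2.65 for the early list.

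The genes next to the 4 on the chromosome mostly did not share the change at 8 h 30 min. Beside SPS4, RPL20B, a ribosomal protein gene, had a log2 fold change of -1.14 ± 0.18. On the other side YOR314W, 168 bases from the SPS4 start codon and on the opposite strand, was at 3.50 to 7.62 CPM in the MMTT libraries and had 0 counts in the 3 SS libraries (edgeR, adjusted p = 5.8e-04). Whether the counting used strand is not given in the sources used here, so reads of this gene and of the region before SPS4 cannot be told apart. Beside SPR2, SAS5 had -0.51 ± 0.19 and AIM41 had 0.78 ± 0.18. Beside RRT5, RPL29 had -0.38 ± 0.31, and beside YDL186W, PPH22 had 0.46 ± 0.13 and VMA1 had -0.29 ± 0.13. YOR314W alone among these 7 neighbours passed the test.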

How the data were processed

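RNA of 2 strains at 9 times was sequenced by the authors, paired end, from NEBNext Ultra II Directional libraries. The authors checked reads with FastQC, removed ribosomal reads, aligned with STAR and deposited raw counts per gene with no normalization. Their versions, genome build, annotation and strand setting are not given in the sources used here. Total counts of the 54 libraries ranged from 159701 to 5793502. At these depths a level under 1 CPM is a few reads. Of 6571 gene IDs, 5906 matched the R64 annotation, used for names, coordinates and sequence.

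The main fits used edgeR 4.0.16 in R 4.3.3 on the 49 libraries the study kept, with TMM factors, 1 mean per group, robust quasi-likelihood tests and Benjamini-Hochberg adjustment over all genes tested. Genes needed 3 CPM in 3 libraries between strains, or 0.5 CPM in 3 libraries within a strain. Calls needed both a log2 fold change beyond 2 in size and an adjusted p below 0.05, and the strain by time test an adjusted p under 0.001. Standard errors are the absolute log2 fold change over the square root of F. Where a group has 2 libraries, or 1 with a library left out, its spread is assumed to be like that of the other groups. Log2 CPM for correlations used a prior count of 2. The fits were tested on simulated data. DESeq2 1.42.0, RLE factors, no filter, all 54 libraries, the replicate number as a block, a fold threshold of 1 and each library left out were alternatives. Python 3.11.15 with pandas 2.3.3 and matplotlib 3.10.9 made tables and figures.

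The genes and lists were chosen with earlier results of these data known. The genes named are the 4, their neighbours, NDT80, SUM1, IME1 and IME2, the 5 genes most correlated with each of the 4, and the 3 largest and 2 smallest of the middle, SPS and SPR, and RRT lists. Others are named where a count was small.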

Additional observations from a re-analysis of the deposited data

Results flagged for a closer look

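Signal of the 4 genes appeared in libraries that the comparisons do not use, above the highest kept SS library of the same time. In MMTT 45 min replicate 2 SPS4 was at 5539 CPM, SPR2 at 1306, RRT5 at 863 and YDL186W at 127 CPM, against at most 3.14, 1.31, 1.83 and 0.295 CPM in SS. In MMTT 2 h 30 min replicate 3 the levels were 489, 87.4, 93.2 and 29.1 CPM in the same order, against at most 3.09, 4.83, 4.68 and 0.966 CPM in SS. In MMTT 5 h 40 min replicate 3 they were 52.8, 12.2, 12.2 and 1.38 CPM, against at most 2.27, 4.28, 9.33 and 0.378 CPM in SS.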

How the results depend on the processing

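Of the fitted values of the 4 genes, all 46 kept their side of the threshold with RLE factors and with no filter on low counts. With the replicate number as a block 45 of 46 did, and SPR2 at 30 min did not (log2 fold change 2.96, adjusted p = 0.053). The block passed 21 of the 27 tests between strains. Replicate numbers were not taken to pair libraries: of 12 same-numbered pairs across strains 2 correlated above 0.1, with a median of -0.07. DESeq2 passed 24 of the 27 tests between strains, adding RRT5 at 45 min (2.99) and 1 h 10 min (2.04), 1 of 3 genes in place of 0 for strain by time, and 1 in place of 2 for SS at 8 h 30 min against 0 h, where all 54 libraries also gave 1. With all 54 libraries 16 of the 27 passed, 11 of 46 values lost their call, and 0 in place of 3 genes passed in MMTT at 3 h 50 min against 1 h 40 min. Leaving out each library gave 19 to 23 of the 27 tests between strains, 0 to 1 of 3 for strain by time, 2 to 4 of 4 for SS over time, 0 to 3 of 4 for SS at 8 h 30 min against 0 h, 0 to 4 of 4 for MMTT at 3 h 50 min and 0 to 3 of 4 at 5 h 40 min, the highest of these last 2 without MMTT 2 h 30 min replicate 2. SPR2 in SS at 8 h 30 min against 0 h ranged from -0.85 to 0.12, with its sign changed without SS 0 h replicate 2.

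Counts over all genes moved by more than 1.5 times in a few settings. At a fold threshold of 1 the genes higher in MMTT numbered 480 at 30 min, against 103 at the threshold of 2, 395 against 145 at 45 min, 358 against 76 at 1 h 10 min, 209 against 46 at 1 h 40 min, 473 against 193 at 2 h 30 min, 221 against 91 at 3 h 50 min and 338 against 159 at 5 h 40 min. At that threshold SS gave 795 against 210, and MMTT 94 against 26 at 3 h 50 min and 6 against 2 at 5 h 40 min. With all 54 libraries the genes higher in MMTT than SS at 5 h 40 min numbered 94 against 159, and those higher in MMTT at 3 h 50 min than at 1 h 40 min 2 against 26. At 5 h 40 min against 1 h 40 min the 2 genes became 0 with all 54 libraries, 0 with the block, 1 with RLE factors and 11 in DESeq2. DESeq2 passed 700 genes for strain by time, against 290. Of the genes higher in MMTT at 45 min, 30 passed without MMTT replicate 1 of that time and 346 without MMTT replicate 3, and without that last library 442 passed for strain by time. At 1 h 10 min 48 passed without MMTT replicate 2 and 50 without SS replicate 3, at 2 h 30 min 104 without MMTT replicate 2, and at 5 h 40 min 95 without MMTT replicate 2 and 94 without SS replicate 2. Within MMTT, leaving out each library gave 0 to 35 genes at 3 h 50 min and 0 to 21 at 5 h 40 min against 1 h 40 min. The SS values of the 4 genes rest on at most 48 counts a library, and YDL186W had 0 counts in 10 of the 25 kept SS libraries. The cause of these changes was not tested.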
